A study of Homo sapiens with 10 samples.

Results

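The genes described here are 32 genes of DNA replication and S phase, chosen by symbol from a list of the replication machinery and its regulators. Each of the 32 matched 1 row of the count table, which holds 28380 genes, and each had enough counts to be among the 13378 genes tested. RPE-1, an established line of telomerase-immortalized human retinal pigment epithelial cells, was exposed for 4 h to 25 µM sulforaphane (SFN), an isothiocyanate from cruciferous vegetables, or to the vehicle DMSO. Each group was 5 libraries of the same line, and the labels name no genetic change or other agent in either. The methods describe a set amount of cells for each replicate and mention repeated measures without defining them, so how independent the replicates were is not known, and p-values measure the spread between these libraries. The methods name Lexogen QuantSeq, which reads the 3′ ends of transcripts, while the labels describe a standard Illumina preparation, so whether the counts depend on transcript length by design is uncertain. The libraries held 15689294 to 20666692 counts in DMSO and 12375860 to 17308706 in SFN. Levels are given as CPM, which are counts relative to the library total after TMM scaling, and log2 fold changes are SFN minus DMSO, with their standard error (SE). Of the markers of the labeled cell type, KRT8, KRT18, OTX2 and MITF were present in every library, as was BEST1, whereas RPE65, RLBP1, TTR and TYRP1, which mark mature retinal pigment epithelium, had at most 4 counts in any library, LRAT at most 12 and PMEL at most 29. MITF was at 43.9 to 55.1 CPM in DMSO and 18.7 to 25.6 CPM in SFN and OTX2 at 12.1 to 17.7 and 8.69 to 9.36 CPM, without overlap, and BEST1 at 5.42 to 41.8 and 19.4 to 107 CPM. The 9 retinal pigment epithelium markers in the table summed to 1116 to 1881 counts in DMSO and 790 to 1583 in SFN, and the leukocyte, endothelial and tight epithelium markers to at most 24, 9 and 2 counts in any library. TERT, the telomerase gene, had 18 to 33 counts in DMSO and 1 to 6 in SFN.

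DNA replication is prepared in G1 phase, when the origin recognition complex (ORC), CDC6 and CDT1 load the MCM2-7 helicase onto DNA as an inactive double hexamer. In S phase, CDC45 and the GINS complex join MCM2-7 to form the active CMG helicase with the help of MCM10. DNA polymerases α, δ and ε copy the strands behind it, and the PCNA clamp that the RFC complex loads holds δ and ε to DNA. Most of these genes are transcribed as cells pass from G1 to S phase, under E2F transcription factors that the RB protein holds in check. In RNA from a whole culture, fewer cells in S phase and less RNA per S-phase cell cannot be told apart.

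The promoters of these genes are shown because E2F factors bind many of them. Windows from 250 bases before to 50 bases after the RefSeq transcription start (GRCh38.p14) were available for 29 of the 32 genes and not for MCM4, MCM5 and GINS4. The E2F letters searched were TTTCCCGC, TTTCGCGC, TTTGCCGC and TTTGGCGC, on both strands and with overlapping matches counted. They stood in the windows of 18 of the 29 genes (62.1%), against 1090 of all 27305 genes with a window (3.99%), whether or not they were tested here. CCAAT, the core of the NF-Y site, stood on either strand in 18 of the 29 (62.1%), against 39.7% of the same 27305 genes. Genes with several starts had a window for each, and a match in any window counted. Not every window of UHRF1, PCNA or MCM7 held the E2F letters, and the stretches below come from the first window listed. A match is a description of the letters and not a measured binding site. The following stretches run 5′ to 3′ from 100 bases before the start through its first 30 bases, with the E2F letters in capitals, and belong to the 9 genes that fell in SFN.
ORC1, chr1:52404394-52404523, minus strand: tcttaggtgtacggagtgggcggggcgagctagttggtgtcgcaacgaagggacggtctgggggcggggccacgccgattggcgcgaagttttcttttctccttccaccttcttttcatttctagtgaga
CDC6, chr17:40287779-40287908, plus strand: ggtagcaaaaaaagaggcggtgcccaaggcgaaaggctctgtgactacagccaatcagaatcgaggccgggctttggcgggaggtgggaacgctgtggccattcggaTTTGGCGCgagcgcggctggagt
CDT1, chr16:88803689-88803818, plus strand: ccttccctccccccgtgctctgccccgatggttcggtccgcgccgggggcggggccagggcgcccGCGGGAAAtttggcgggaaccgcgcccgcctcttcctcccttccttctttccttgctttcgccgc
MCM10, chr10:13161458-13161587, plus strand: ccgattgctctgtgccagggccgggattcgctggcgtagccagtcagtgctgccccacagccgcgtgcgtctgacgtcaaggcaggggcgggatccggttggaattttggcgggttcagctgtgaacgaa
GINS1, chr20:25407573-25407702, plus strand: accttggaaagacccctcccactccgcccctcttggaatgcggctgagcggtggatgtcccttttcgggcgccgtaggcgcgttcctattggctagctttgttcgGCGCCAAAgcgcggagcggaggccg
GINS3, chr16:58392371-58392500, plus strand: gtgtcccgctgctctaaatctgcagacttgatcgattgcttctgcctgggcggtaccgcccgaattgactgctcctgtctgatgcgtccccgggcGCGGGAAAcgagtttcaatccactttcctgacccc
RFC3, chr13:33818049-33818178, plus strand: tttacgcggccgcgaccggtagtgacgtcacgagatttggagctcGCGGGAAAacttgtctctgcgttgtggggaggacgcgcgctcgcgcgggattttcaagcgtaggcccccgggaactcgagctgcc
POLE2, chr14:49688185-49688314, minus strand: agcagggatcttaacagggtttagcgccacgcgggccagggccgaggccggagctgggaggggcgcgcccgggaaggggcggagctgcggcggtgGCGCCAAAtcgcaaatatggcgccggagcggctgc
UHRF1, chr19:4909401-4909530, plus strand: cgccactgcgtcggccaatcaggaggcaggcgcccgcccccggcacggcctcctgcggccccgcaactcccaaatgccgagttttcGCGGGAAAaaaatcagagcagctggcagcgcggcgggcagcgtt
For comparison, these are the same stretches of 4 genes that did not pass the test in the fit of all libraries. They were picked among the genes that hold the E2F letters.
MCM3, chr6:52284713-52284842, minus strand: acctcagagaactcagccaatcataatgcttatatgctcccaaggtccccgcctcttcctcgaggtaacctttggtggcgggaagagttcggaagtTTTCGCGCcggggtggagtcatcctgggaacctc
MCM6, chr2:135876414-135876543, minus strand: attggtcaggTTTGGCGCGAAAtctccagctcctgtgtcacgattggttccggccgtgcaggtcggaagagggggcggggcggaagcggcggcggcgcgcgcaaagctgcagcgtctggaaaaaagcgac
PCNA, chr20:5126593-5126722, minus strand: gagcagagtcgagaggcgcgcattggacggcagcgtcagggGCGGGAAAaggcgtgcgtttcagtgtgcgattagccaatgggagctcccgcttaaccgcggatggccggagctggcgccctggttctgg
E2F1, chr20:33686356-33686485, minus strand: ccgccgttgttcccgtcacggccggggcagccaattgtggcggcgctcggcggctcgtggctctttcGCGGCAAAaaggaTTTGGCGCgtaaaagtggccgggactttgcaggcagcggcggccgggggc
The letters were found in 7 of the 9 genes that fell, ORC1 and MCM10 being the exceptions, and in 11 of the 20 other genes with a window, so that genes with and without a lower level in SFN carried them. Counted from the start, the first base of the nearest match lay at -55 (RFC3) to 7 (CDC6) in the genes that fell and at -137 (POLA1) to 2 (MCM2) in the others, so the positions overlapped.

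1 library stood apart. Measured against the mean log2 CPM of DMSO replicates 2 to 5, the 32 genes had an SD of 0.71 in DMSO replicate 1, against 0.057 to 0.11 in those 4 replicates themselves. In DMSO replicate 1, 6 of the 32 genes were over 2-fold from that mean, with PCNA, E2F1 and ORC6 above it and ORC1, POLA1 and POLE below it. These shifts went with transcript length. Among the 7 genes with a canonical transcript under 2000 bases, 6 were higher in DMSO replicate 1 than in the other DMSO replicates, with a median difference of 0.79 on the log2 scale, and among the 25 longer genes 10 were higher, with a median of -0.23. Across the 32 genes, which are not independent replicates, Pearson's r between this difference and log2 length was -0.69 (Spearman's rho -0.59). The same measure was -0.71 (rho -0.65) in SFN replicate 2 and 0.68 (rho 0.63) in SFN replicate 5, each against the other SFN replicates. The 9 genes that fell had transcripts of 1692 to 4564 bases (median 3121) and the other 23 had 1276 to 7823 (median 3068). In a further fit each library's length trend was removed, after which the same 9 genes passed the test and no other member did. That trend was fitted over all genes tested and would also take up any effect of SFN that goes with length. The part of length in the calls was therefore not tested. Results are also given without DMSO replicate 1 where that changes a call.

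Whether SFN changed these genes within 4 h was asked by comparing the 5 SFN with the 5 DMSO libraries. ORC1, CDC6, CDT1, MCM10, GINS1, GINS3, RFC3, POLE2 and UHRF1 fell, by 1.29-fold to 2.08-fold, and no gene rose. The genes that fell included licensing factors, subunits that complete the CMG helicase, a clamp loader subunit, a polymerase ε subunit and a reader of hemimethylated DNA. None of the 6 MCM2-7 subunits, neither Okazaki fragment enzyme and none of the 3 genes of deoxynucleotide supply passed the test.

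SFN and DMSO were compared by the quasi-likelihood test of edgeR, and p-values were adjusted over all genes by the Benjamini-Hochberg method. At an adjusted p under 0.05, 9 of the 32 genes were lower (28.1%) and 0 higher, beside 13.9% lower and 9.07% higher among the 13378 genes tested. At an unadjusted p under 0.05 there were 11 lower and 0 higher, the added ones being MCM4 and POLD1, and DESeq2 and limma-voom also gave 0 higher. With library size as the only scaling the counts over all genes were 2163 lower and 819 higher, and with the length trend removed 1949 and 2024, against 1862 and 1214 with TMM scaling. The fold change was below 0 in 25 of the 32 (78.1%, beside 52.6% of all genes), and the median log2 fold change was -0.20, beside -0.028 over all genes. Every SFN library lay below every DMSO library for 9 genes, 8 that passed the test and MCM4 (background 11.1%), and above for 0 (background 8.78%). Past a 2-fold limit as well, 1 gene was lower, ORC1 (background 5.76%), and 0 were higher (background 2.94%). The 32 genes together took 0.447% to 0.462% of the raw counts of each DMSO library and 0.355% to 0.395% of each SFN library. These shares leave out the TMM scaling used for the levels. The TMM factors were 0.886 in DMSO replicate 1, 1.06 to 1.08 in DMSO replicates 2 to 5 and 0.938 to 0.988 in SFN. The size of the gap in raw shares therefore does not apply to the scaled levels. How much of the gap remains after scaling was not computed.

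Without DMSO replicate 1, the same 9 genes passed the test, and so did 9 more. MCM2, MCM3, MCM4, POLA1, POLE and POLD1 were then lower, to a total of 15 (46.9%), and ORC6, RFC4 and E2F1 were higher (9.38%), beside 23.5% lower and 22.5% higher among all 13566 genes then tested. The share of higher calls was below that background with and without this library.

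**Figure D1:**
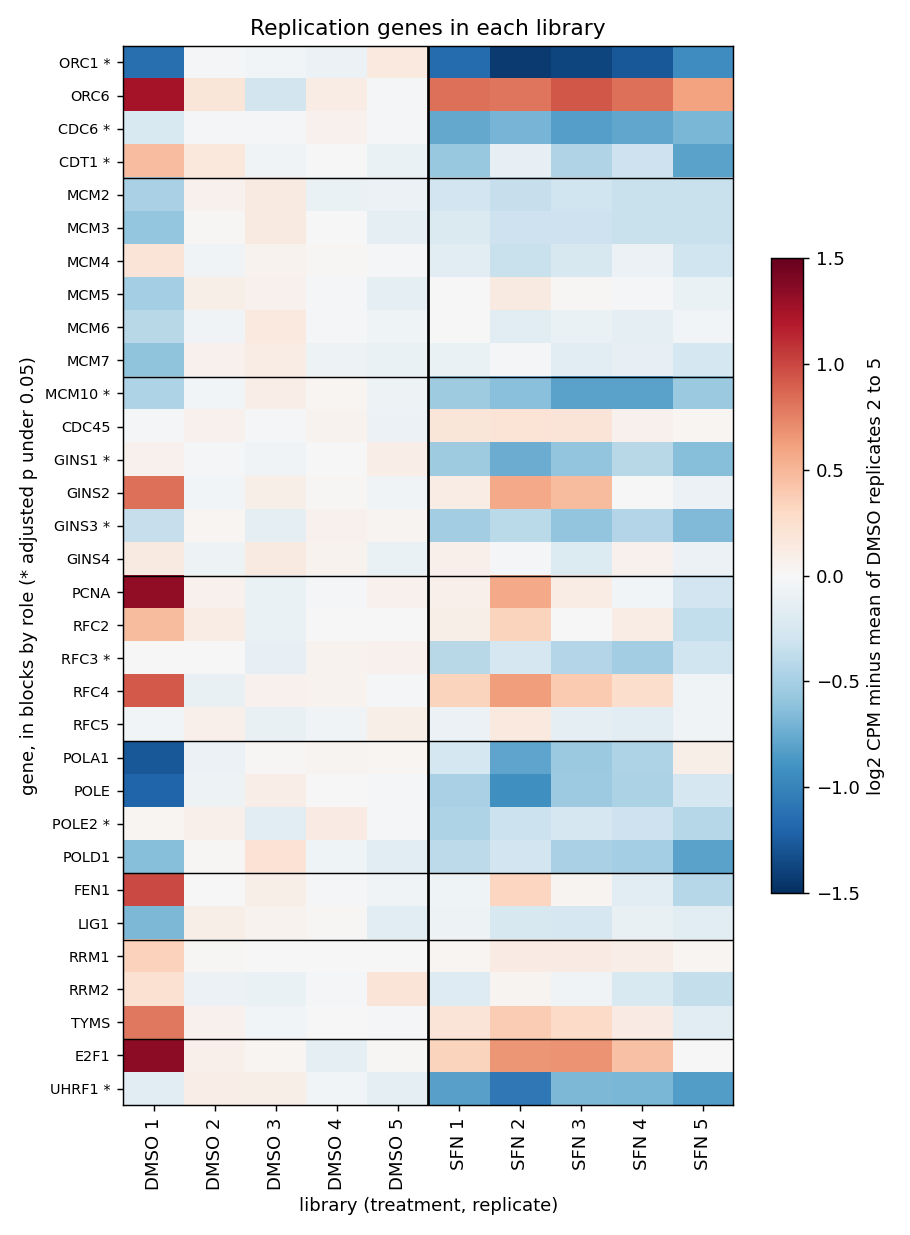
Each of the 32 genes (rows, in blocks by role; * adjusted p under 0.05 over all libraries) in each library (columns), as log2 CPM minus the mean of DMSO replicates 2 to 5. DMSO replicate 1 stands apart in both directions, and the rows marked * are lower across the 5 SFN libraries.

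**Figure D2:**
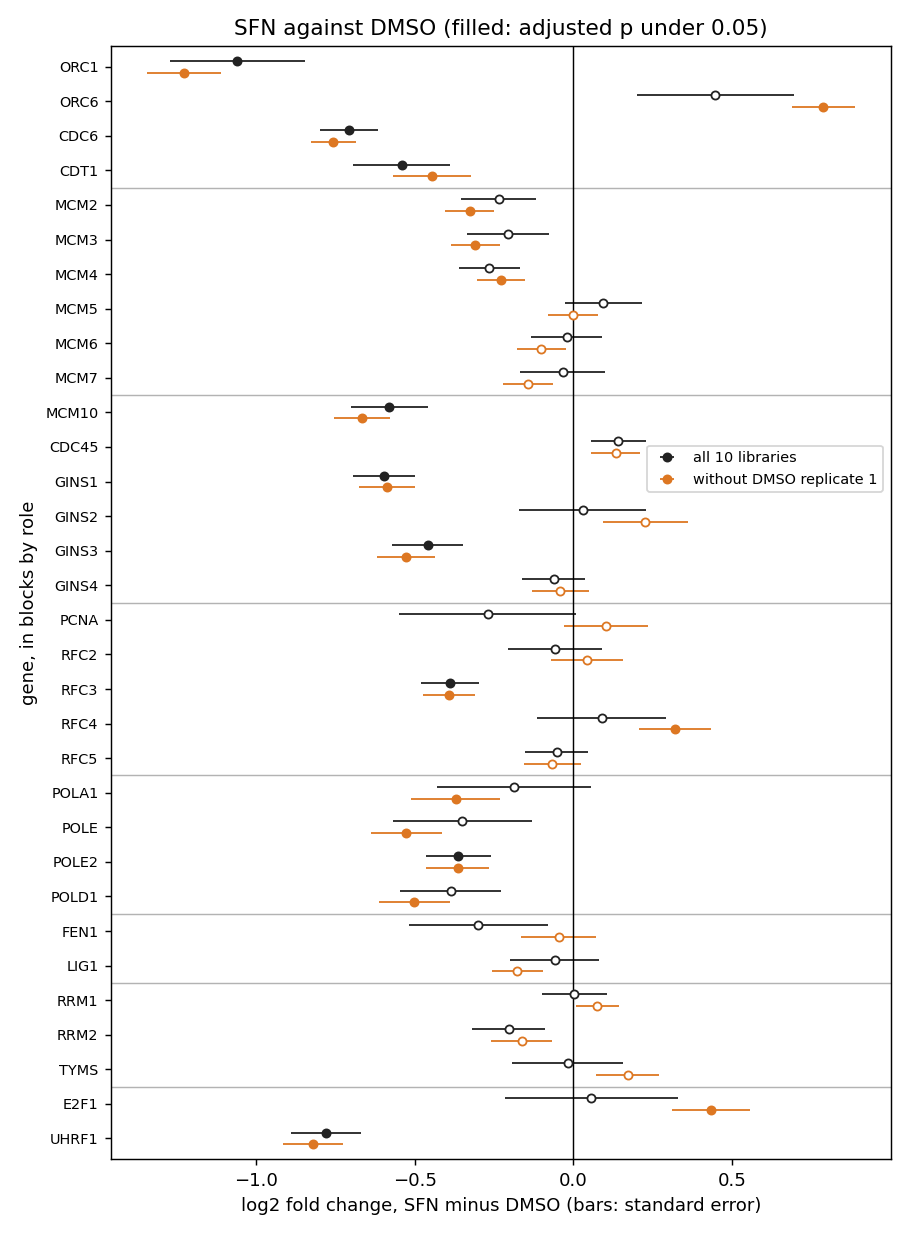
Log2 fold change of each gene, SFN minus DMSO, with its standard error, over all 10 libraries (black) and without DMSO replicate 1 (orange); filled points have an adjusted p under 0.05. Filled black points are the 9 genes that fell, and ORC6, RFC4 and E2F1 are the genes with filled points to the right of 0 once DMSO replicate 1 is left out.

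Origin recognition and licensing held 3 of the 9. ORC1, the largest subunit of ORC and the one that cells degrade after G1, had 10.7, 23.2, 22.8, 22.05 and 26.05 CPM in DMSO replicates 1 to 5 and 10.6, 8.71, 9.01, 9.72 and 12.3 CPM in SFN replicates 1 to 5. DMSO replicate 1 lay within the SFN range, while the other DMSO replicates lay above every SFN library. The means were 20.97 ± 5.93 CPM in DMSO and 10.1 ± 1.43 CPM in SFN (SD, n = 5), a log2 fold change of -1.06 (SE 0.21, adjusted p = 0.0037 by edgeR), and -1.23 without DMSO replicate 1. CDC6, the ATPase that ORC recruits to load MCM2-7, had 119.6, 138, 138, 146 and 139 CPM in DMSO and 82.1, 86.4, 79.4, 81.8 and 87.3 CPM in SFN, replicates 1 to 5. The groups were well apart, at 136 ± 9.88 CPM in DMSO and 83.4 ± 3.33 CPM in SFN (SD, n = 5). Its log2 fold change was -0.71 (SE 0.09, adjusted p = 0.00018 by edgeR). CDT1, which brings MCM2-7 to the origin and is destroyed in S phase, had 45.5, 36.9, 31.9, 33.2 and 30.8 CPM in DMSO and 22.3, 30.5, 24.2, 26.7 and 18.9 CPM in SFN. Each SFN library was below each DMSO library, though by a narrow gap between SFN replicate 2 and DMSO replicate 5. The log2 fold change of CDT1 was -0.54 (SE 0.15, adjusted p = 0.024 by edgeR), and the adjusted p ranged from 0.0059 to 0.067 over 19 other fits, missing the threshold without DMSO replicate 2 or SFN replicate 1, 3 or 5.

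ORC6, the smallest ORC subunit, did not pass the test over all libraries and was higher in SFN without DMSO replicate 1. Its values were 269, 129, 94.1, 122 and 112 CPM in DMSO and 202, 199, 217, 201 and 173 CPM in SFN, replicates 1 to 5. DMSO replicate 1 was above every other library, and every SFN library was above DMSO replicates 2 to 5. The log2 fold change was 0.45 over all libraries (SE 0.25, adjusted p = 0.23 by edgeR) and 0.79 without DMSO replicate 1 (SE 0.10, adjusted p = 2.8e-05).

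None of the 6 subunits of the MCM2-7 helicase passed the test over all libraries, and 3 did without DMSO replicate 1. MCM4 had 401, 338, 362, 354 and 345 CPM in DMSO and 313, 278, 296, 328 and 284 CPM in SFN, so that the groups did not overlap, and its log2 fold change of -0.26 (SE 0.10) missed the threshold (adjusted p = 0.071 by edgeR). Without DMSO replicate 1 it was -0.23 (adjusted p = 0.026), and it also passed with library size, upper quartile or quantile scaling and with DESeq2. MCM2 had 81.6, 119.6, 125, 107 and 108 CPM in DMSO and 94.1, 90.5, 93.1, 90.96 and 91.3 CPM in SFN. Its DMSO replicate 1 was the lowest of all 10 libraries, and the other DMSO replicates lay above every SFN library. MCM3 was likewise lowest in DMSO replicate 1 and higher in the other DMSO replicates than in SFN, with 180.2, 272, 296, 268 and 242 CPM in DMSO and 231, 217, 218, 214 and 213 CPM in SFN. The log2 fold change was -0.24 for MCM2 and -0.20 for MCM3 over all libraries (adjusted p = 0.18 and 0.30 by edgeR), and -0.33 and -0.31 without DMSO replicate 1 (adjusted p = 0.0034 and 0.0052). For the other subunits the 95% interval of the log2 fold change over all libraries bounded the change, at -0.17 to 0.36 for MCM5, -0.26 to 0.22 for MCM6 and -0.32 to 0.26 for MCM7. MCM6 illustrates the overlap of the groups, with 141, 182, 208, 184 and 180.2 CPM in DMSO and 187, 167, 176, 169.6 and 183 CPM in SFN.

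Among the genes that complete and activate the helicase, MCM10, GINS1 and GINS3 fell and CDC45, GINS2 and GINS4 did not pass the test. MCM10, which is needed for the loaded helicase to start unwinding, had 57.7, 76.9, 84.8, 80.9 and 75.4 CPM in DMSO and 55.1, 51.2, 45.6, 45.5 and 53.9 CPM in SFN. Every SFN library was lower than every DMSO library, and the log2 fold change was -0.58 (SE 0.12, adjusted p = 0.0048 by edgeR). GINS1 had 52.8, 49.2, 48.3, 50.1 and 53.7 CPM in DMSO and 34.6, 30.02, 33.4, 37.7 and 32.3 CPM in SFN, and GINS1 was one of the genes in which DMSO replicate 1 sat among the other DMSO replicates. Its means were 50.8 ± 2.34 CPM in DMSO and 33.6 ± 2.86 CPM in SFN (SD, n = 5), with a log2 fold change of -0.60 (SE 0.10, adjusted p = 0.00094 by edgeR). GINS3 had 23.6, 30.6, 27.1, 31.3 and 30.7 CPM in DMSO and 20.9, 22.6, 19.9, 22.1 and 18.9 CPM in SFN, again without overlap. Its log2 fold change was -0.46 (SE 0.11, adjusted p = 0.012 by edgeR). The GINS complex thus had subunits on both sides of the threshold, since GINS4 had a log2 fold change of -0.06 (95% interval -0.28 to 0.16) and GINS2 of 0.03 (-0.41 to 0.47). GINS2 was at 37.5, 20.6, 22.5, 21.5 and 20.4 CPM in DMSO and 22.9, 31.6, 29.4, 21.1 and 19.98 CPM in SFN, and DMSO replicate 1 was again the highest library. CDC45, which joins MCM2-7 together with GINS, was at 76.2, 80.5, 75.4, 79.6 and 72.6 CPM in DMSO and 87.4, 88.8, 88.2, 80.8 and 78.8 CPM in SFN. The groups of CDC45 overlapped, with a log2 fold change of 0.14 (SE 0.09, adjusted p = 0.28 by edgeR). Differences between the subunits themselves were not tested.

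Of the clamp and its loader, RFC3 fell. RFC3, a small subunit of the RFC clamp loader, had 81.1, 80.1, 74.2, 83.7 and 84.4 CPM in DMSO and 60.5, 67.4, 59.1, 56.1 and 65.2 CPM in SFN. No library of one group reached into the other, and the means of 80.7 ± 4.05 CPM in DMSO and 61.7 ± 4.56 CPM in SFN (SD, n = 5) gave a log2 fold change of -0.39 (SE 0.09, adjusted p = 0.0099 by edgeR). PCNA, the sliding clamp and a common marker of S-phase cells, had 788, 328, 292, 308 and 327 CPM in DMSO and 331, 464, 339, 304 and 257 CPM in SFN. DMSO replicate 1 was over 2-fold above the other DMSO replicates, and of the SFN libraries replicates 1 to 3 lay above those DMSO replicates and replicates 4 and 5 did not. The log2 fold change was -0.27 (SE 0.28, adjusted p = 0.55 by edgeR) over all libraries and 0.10 (SE 0.13) without DMSO replicate 1, so its sign depended on that library. RFC4 had 156, 76.1, 86.1, 85.3 and 81.2 CPM in DMSO and 103, 127, 108, 98.2 and 79.3 CPM in SFN, with a log2 fold change of 0.09 (adjusted p = 0.80 by edgeR) that became 0.32 without DMSO replicate 1 (adjusted p = 0.032). RFC2 and RFC5 had log2 fold changes of -0.06 (95% interval -0.38 to 0.27) and -0.05 (-0.27 to 0.16).

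POLE2 was the polymerase gene that fell. POLE2, the second subunit of the leading strand polymerase ε, had 18.3, 18.9, 15.99, 19.5 and 17.7 CPM in DMSO and 13.1, 14.4, 15.04, 14.5 and 13.3 CPM in SFN. The groups were close but did not overlap, and the log2 fold change was -0.36 (SE 0.10, adjusted p = 0.023 by edgeR, with a range of 0.0046 to 0.10 over 19 other fits, 13 of them under 0.05). It missed the threshold without DMSO replicate 2 or 4 or SFN replicate 1, and in 3 fits of all libraries, with quantile normalization, no low-count filter or a replicate block. POLE, the catalytic subunit of the same polymerase, had 49.5, 108, 122, 114 and 112 CPM in DMSO and 81.2, 60.2, 78.1, 81.9 and 95.7 CPM in SFN. DMSO replicate 1 was the lowest library, and DMSO replicates 2 to 5 were above every SFN library. Its log2 fold change was -0.35 (SE 0.22, adjusted p = 0.29 by edgeR) and -0.53 without DMSO replicate 1 (SE 0.11, adjusted p = 0.0018). POLD1, the catalytic subunit of polymerase δ, had 25.9, 40.96, 46.8, 38.6 and 36.1 CPM in DMSO and 30.7, 33.1, 28.9, 28.3 and 23.2 CPM in SFN. DMSO replicate 1 lay within the SFN range, and the log2 fold change was -0.39 (adjusted p = 0.10 by edgeR) and -0.50 without it (adjusted p = 0.0026). POLA1, the catalytic subunit of the polymerase α-primase complex that lays down primers, had 35.9, 81.97, 87.8, 89.4 and 88.6 CPM in DMSO and 72.3, 50.04, 59.2, 63.2 and 92.1 CPM in SFN. SFN replicate 5 was the highest POLA1 value of all libraries, and the log2 fold change was -0.19 (adjusted p = 0.64 by edgeR) and -0.37 without DMSO replicate 1 (adjusted p = 0.042). All 4 polymerase genes were thus lower in the fit without DMSO replicate 1. With the length trend removed over all libraries, the log2 fold changes were -0.03 for POLA1, -0.14 for POLE, -0.30 for POLD1 and -0.41 for POLE2. Of these genes only POLE2 passed the test in that fit.

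The genes of Okazaki fragment maturation and of deoxynucleotide supply did not pass the test with or without DMSO replicate 1. FEN1, the nuclease that trims the flap of an Okazaki fragment, had 375, 188, 201, 186 and 182 CPM in DMSO and 181, 236, 194, 169 and 141 CPM in SFN. DMSO replicate 1 was the highest library, and the log2 fold change was -0.30 (SE 0.22) with it and -0.05 (SE 0.12) without it. LIG1, the ligase that seals the fragments, had a log2 fold change of -0.06 (95% interval -0.36 to 0.25). RRM1, the large subunit of ribonucleotide reductase, had 516, 410.3, 404, 403 and 402 CPM in DMSO and 413, 442, 439, 432 and 413 CPM in SFN. The SFN libraries lay between DMSO replicates 2 to 5 and DMSO replicate 1, and the 95% interval of the log2 fold change was -0.22 to 0.23. RRM2, the subunit of the same enzyme whose level is tied to S phase, had 246, 198, 196, 208 and 241 CPM in DMSO and 184, 217, 202, 179 and 163 CPM in SFN, which overlapped. Its log2 fold change was -0.20 (SE 0.12, adjusted p = 0.24 by edgeR). TYMS, the thymidylate synthase, had a log2 fold change of -0.02 (95% interval -0.40 to 0.37), and its 3′ end is covered by ENOSF1 on the opposite strand.

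Of the regulators, UHRF1 fell and E2F1 did not pass the test over all libraries. UHRF1, which binds hemimethylated DNA behind the fork and brings in the maintenance methyltransferase, had 217, 262, 259.8, 237 and 221 CPM in DMSO and 139, 116, 154, 151 and 137 CPM in SFN. The lowest DMSO library was above the highest SFN library, and the means of 239 ± 21.1 CPM in DMSO and 139 ± 14.9 CPM in SFN (SD, n = 5) gave a log2 fold change of -0.78 (SE 0.11, adjusted p = 0.00035 by edgeR). E2F1, an activator of S-phase genes, had 113, 47.1, 45.6, 40.7 and 45.2 CPM in DMSO and 56.4, 70.6, 70.8, 60.6 and 44.5 CPM in SFN. DMSO replicate 1 was far above the other libraries, and SFN replicates 1 to 4 were above DMSO replicates 2 to 5. The log2 fold change of E2F1 was 0.06 (SE 0.27, adjusted p = 0.91 by edgeR) over all libraries and 0.43 (SE 0.12, adjusted p = 0.011) without DMSO replicate 1.

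Other genes of the same processes were read from 5 lists. Of 50 other replication genes, 15 were lower and 0 higher by edgeR (2 higher at an unadjusted p under 0.05 and 1 by DESeq2), which is 30% lower beside 13.9% of all genes, with a median log2 fold change of -0.11 beside -0.028. Without DMSO replicate 1 the counts were 19 and 9, or 38% lower and 18% higher beside 23.5% and 22.5% of all genes. ATAD5, which unloads PCNA, had a log2 fold change of -1.27 (adjusted p = 0.00033 by edgeR), CHAF1A, a subunit of the histone chaperone CAF-1, -0.93 (0.018), CDC7, the kinase that triggers origin firing, -0.79 (0.00024), and HELLS, a chromatin remodeler of the SNF2 family, -0.76 (0.0022). CHAF1A had 322, 140.4, 161, 129 and 115 CPM in DMSO and 92.5, 94.03, 88.2, 91.5 and 88.4 CPM in SFN, and its log2 fold change was -0.59 without DMSO replicate 1, its highest library.

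In the list of E2F, RB and S-phase cyclin genes, 7 of 22 were lower (31.8%, beside 13.9% of all genes) and 2 higher (9.09%, near the 9.07% of all genes). Without DMSO replicate 1 the counts were 10 lower (45.5%, beside 23.5%) and 3 higher (13.6%, beside 22.5%). CCNE2, a cyclin E that drives CDK2 into S phase, had 30.95, 44.4, 37.2, 47.4 and 46.9 CPM in DMSO and 10.5, 7.59, 9.68, 8.64 and 10.2 CPM in SFN. It fell 4.43-fold, from 41.4 ± 7.11 to 9.33 ± 1.20 CPM (SD, n = 5), more than any of the 32 replication genes, with an adjusted p of 2.5e-06 by edgeR. E2F family members also fell, with log2 fold changes of -1.73 for E2F8 (adjusted p = 0.0052 by edgeR), -1.54 for E2F2 (0.00018) and -1.48 for E2F5 (0.00021). E2F8 was at 4.23, 14.9, 15.5, 17.1 and 15.98 CPM in DMSO, so that replicate 1 again lay within the SFN values of 3.81, 1.90, 4.62, 3.71 and 6.21 CPM. The genes of this list that rose, named after their values were seen, were LIN52, a subunit of the DREAM and MuvB complexes, at 0.70 (adjusted p = 0.038 by edgeR), and E2F3, at 0.42 (0.023). The count of 2 became 0 when DMSO replicate 2, 3, 4 or 5 or SFN replicate 3, 4 or 5 was left out, and 3 without DMSO replicate 1.

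Licensing turnover and S-phase checkpoint genes had 3 of 17 lower and 0 higher by edgeR (0 higher also at an unadjusted p under 0.05 and by DESeq2). The 17.6% lower was close to the 13.9% of all genes, and without DMSO replicate 1 it was 6 genes, 35.3% beside 23.5%. ATRIP, the partner of the checkpoint kinase ATR, had a log2 fold change of -1.15 (adjusted p = 6.6e-05 by edgeR), SKP2, the ligase subunit that targets CDT1 and p27, -1.05 (6.5e-05), and FBXO5, an inhibitor of the anaphase promoting complex, -0.49 (0.0053). SKP2 had 42.04, 42.8, 37.3, 44.5 and 49.1 CPM in DMSO and 21.5, 23.98, 17.6, 20.99 and 20.1 CPM in SFN, without overlap. Of 25 other genes of nucleotide synthesis, 4 were lower and 0 higher by edgeR, DESeq2 and an unadjusted p under 0.05 also giving 0 higher. This share of 16% lower was near the 13.9% of all genes, and without DMSO replicate 1 the counts were 8 lower (32%, beside 23.5%) and 3 higher (12%, beside 22.5%). The 4 were UMPS and DHODH of pyrimidine synthesis, PPAT of purine synthesis and CTPS1, the CTP synthase. Their log2 fold changes were -0.71, -0.58, -0.52 and -0.37 (adjusted p = 8.6e-05, 0.026, 0.0030 and 0.037 by edgeR). CTPS1 passed the test in 8 of the 19 other fits, and of those that left out a library only in the one without DMSO replicate 1, and DHODH passed in 14, missing the threshold without SFN replicate 1, 4 or 5, with the length trend removed and with quantile normalization.

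Mitosis genes, which are expressed later in the cell cycle, had more higher than lower calls. Of 35, 6 were higher (17.1%, beside 9.07% of all genes) and 2 lower (5.71%, beside 13.9%), and without DMSO replicate 1 the counts were 14 (40%, beside 22.5%) and 5 (14.3%, beside 23.5%). Their median log2 fold change minus that of all genes was 0.19, and 0.097 without DMSO replicate 1. HMMR, a spindle protein, had 210.4, 236, 218, 251 and 238 CPM in DMSO and 410.0, 369, 359, 361 and 444 CPM in SFN, which did not overlap. It rose by 0.75 on the log2 scale (SE 0.10, adjusted p = 0.00029 by edgeR). CENPA, the centromeric histone, rose by 0.81 (adjusted p = 0.0039 by edgeR) and UBE2C, the ubiquitin conjugating enzyme of the anaphase promoting complex, by 0.78 (0.015). ESPL1, which encodes separase, fell, with a log2 fold change of -0.80 (0.012). The difference between the lists was not tested.

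Reads of a few members may also come from other genes. The 3′ ends of MCM2, GINS2, GINS4, CDC45 and TYMS are covered by a gene on the opposite strand. Those of FEN1 and POLD1 are covered by a protein-coding gene on the same strand, which is FADS2 for FEN1. The use of strand in counting was not given in the sources used here. None of these 7 is among the 9 genes that fell. Of those 9, GINS1, GINS3, RFC3, POLE2 and UHRF1 overlap other genes away from their 3′ ends. RFC3 and UHRF1 do so with a gene on the same strand.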

How the data were processed

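RNA of 10 RPE-1 samples, 5 treated with DMSO and 5 with SFN (groups from the labels), was sequenced as QuantSeq 3′ libraries per the paper's methods, while the labels describe a standard Illumina preparation. The authors used a Bluebee pipeline for alignment and deposited raw counts for each Ensembl gene and library, with nothing normalized or pooled. The submitters' processing notes name FastQC, STAR, featureCounts, edgeR and hg38 (GRCh38). The annotation release and the use of strand or molecular identifiers are not given in the sources used here. Whether the counts scale with transcript length is therefore uncertain, and levels were not compared between genes.

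Counts were filtered with filterByExpr, scaled by TMM and tested with glmQLFit and glmQLFTest in edgeR 4.0.16 (R 4.3.3), with Benjamini-Hochberg adjustment over all 13378 genes tested and a threshold of 0.05. Standard errors were the size of a log2 fold change over the square root of its F statistic, and log2 CPM used a prior count of 2. Alternatives used limma 3.58.1 and DESeq2 1.42.0. The authors' fit accounted for repeated measures that are not defined in the sources used here, and it was not run. The script was tested on simulated counts. No pair of replicates agreed within sampling noise (chi-square per degree of freedom 3.50 to 243). Lengths and overlaps came from GENCODE 44, which held 28145 of the 28380 identifiers.

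The members and the gene lists were chosen with earlier results of these data known. All members were named, and from each list up to 4 genes past the threshold with the largest absolute log2 fold change and a mean of at least 5 CPM. Cell type markers were RPE65, RLBP1, BEST1, LRAT, TTR, PMEL, TYR, TYRP1, OTX2, MITF, KRT8, KRT18, CDH1, EPCAM, PTPRC, CD3E, CD14, PECAM1, CDH5 and TERT, of which TYR, CDH1 and CD3E were not found in the table. HeLa data were not used here.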

Additional observations from a re-analysis of the deposited data

Results flagged for a closer look

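Each value below is the gap between the highest or lowest of the 5 libraries of a group and its nearest neighbor, divided by the whole range of that group, and a library was taken as far from the others above 0.71 (Dixon's test). Of 106 groups examined, 21 passed this limit, and chance gives about 5, or 1 in 20. In 18 of the 21 the library was DMSO replicate 1.

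Among the 32 replication genes, DMSO replicate 1 was far above the other DMSO replicates for ORC6 (0.803), GINS2 (0.880), PCNA (0.929), RFC4 (0.874), FEN1 (0.897), RRM1 (0.924), TYMS (0.903) and E2F1 (0.911), and far below them for ORC1 (0.739), POLA1 (0.861) and POLE (0.808). Of the other genes named, it was high for CHAF1A (0.778), CDC7 (0.714), HELLS (0.851), DHODH (0.775) and UBE2C (0.812), and low for E2F8 (0.825) and ESPL1 (0.872). The genes on both sides of 0 separate this library in the plot of the 32 genes by library. Within SFN, MCM3 was high in replicate 1 (0.737) and UBE2C in replicate 2 (0.721), and the share of all counts that fell in the 32 genes was low in replicate 5 (0.714).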

How the results depend on the processing

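Of the 9 genes that fell, 7 passed the test in each of 19 other fits, CDT1 in 15 and POLE2 in 13. Over 51 named genes, no called value changed sign, 26 values lost the threshold and 13 gained it. Of the 32 genes, 7 to 15 were lower and 0 to 3 higher when 1 library was left out, both highest counts being those without DMSO replicate 1, and 1 was lower past the added limit of a log2 fold change under -1. Their median minus that of all genes was -0.30 by limma-voom with quantile normalization, against -0.18. The cause of these shifts was not tested.

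With 1 library left out, other replication genes had 9 (without SFN replicate 3) to 19 (without DMSO replicate 1) lower, 0 to 9 higher (9 without DMSO replicate 1) and a median minus all genes of -0.15 to -0.079. Nucleotide synthesis genes had 2 (without SFN replicate 1, 4 or 5) to 8 lower and 0 to 3 higher, E2F, RB and cyclin genes 0 to 3 higher, checkpoint genes 3 to 6 lower, and mitosis genes 1 (without SFN replicate 3 or 4) to 5 lower, 5 to 14 higher and a median of 0.097 to 0.21. The counts of 8 lower and 3 higher for nucleotide synthesis, 3 higher for E2F genes, 6 for checkpoint and 5 and 14 for mitosis genes and the median of 0.097 were those without DMSO replicate 1. The higher calls of other replication genes were 1 with DESeq2 and 3 with the length trend removed, and those of nucleotide synthesis genes 1 with the length trend removed. Mitosis genes had 10 higher with DESeq2 and 10 with the length trend removed, and then 1 lower. E2F, RB and cyclin genes had 1 higher with library size only, upper quartile scaling, no low-count filter or the replicate block. By limma-voom the medians minus all genes were -0.15 for other replication, -0.098 for nucleotide synthesis and 0.10 for mitosis genes, and with the length trend removed -0.14 for other replication genes.

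Replicate numbers were shared by the groups, but same-numbered libraries did not deviate together (correlations -0.27 to 0.48), and 1 of 5 DMSO libraries correlated best with its own number, so the numbers were not taken as pairs. With the replicate number as a block, 8 of the 32 genes were lower (POLE2 missed the threshold) and 0 higher, and over all genes 1530 were lower and 911 higher, against 1862 and 1214. Counts of low genes such as POLE2 and ORC1 (101 to 510 counts per library for ORC1) limit how small a change can be seen.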
